A study of Drosophila melanogaster with 2 samples.

Results

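The genes described here are schnurri (shn) and 9 other genes of the Drosophila melanogaster Dpp signalling pathway, namely dpp, brk, tkv, Mad, Med, sax, put, sog and Dad, out of 18277 annotated genes. The genes were chosen by name with the binding data in view, and shn was selected on the height of a peak in one of its introns, so that height is a description here and was not tested. Binding of the zinc-finger protein D19B was mapped by chromatin immunoprecipitation and sequencing (ChIP-seq) in whole embryos of mixed sex aged 0 to 24 h. The embryos came from a transgenic line that carries D19B with GFP at its C terminus, and the protein was pulled down through an anti-GFP antibody. The samples form 1 group of 2 libraries, called replicate 2 and replicate 3 here after their biological replicate numbers in the labels. The labels do not say which promoter drives the transgene, and an embryo collection of this age range mixes many stages and cell types. No comparison between conditions was possible.

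Dpp is the fly's main bone morphogenetic protein (BMP) ligand and patterns the dorsal ectoderm of the embryo and, later, the limb discs. It binds a complex of the type II receptor Punt (put) with the type I receptors Thickveins (tkv) and Saxophone (sax), which phosphorylates the Smad protein Mad, and Mad then enters the nucleus with the co-Smad Medea (Med). With Schnurri, a large zinc-finger cofactor, Mad and Medea silence brinker (brk), whose product represses Dpp target genes. Short gastrulation (sog) restrains the ligand outside the cell, and Daughters against dpp (Dad), an inhibitory Smad, is induced by the pathway and dampens it.

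Peaks were taken from the list that the authors passed through an irreproducible discovery rate (IDR) step, a filter on how alike the regions rank between libraries. A region in it need not have a summit at the same place in each library's own list. That list held 4309 peaks on the dm6 build. A peak's height is the authors' signal value, whose definition is not stated in the records used. In the IDR list, which rests on both libraries and is called the joint list beside those of single libraries, heights ranged from 117 to 15866 with a median of 199.5. They are not scaled between libraries, so a height is read within its own list. Read depth is unknown from these lists. A peak was assigned to a gene when its summit lay in the gene span or within 5 kb of it.

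In total, 29 of the 4309 peaks were assigned to the 10 genes, and 9 genes had at least 1, all but tkv. Across the annotation, 40.5% of all genes and 43.6% of protein-coding genes had a peak by the same rule. A summit within 500 bp of an annotated transcription start site (TSS) was present at 2 of the 10 genes, shn and put, against 12.9% of all genes and 15.3% of protein-coding genes. With a distance of 200 bp the count was 1, and with 1000 bp it was 4, and the shares over all genes were not worked out at these distances. These shares describe the list and were not tested, because the genes were chosen with their peaks known.

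The peaks were divided very unevenly. Of the 29, 16 lay in shn, 3 in sog, 2 each at brk, put and Dad, and 1 each at dpp, Mad, Med and sax. Of these peaks, 24 lay in an intron of the gene they were assigned to, 5 lay outside the gene, and 0 lay in an exon of it. The tallest peak of shn was 4.88 times as high as the tallest at any of the other 9 genes, which was the peak beyond the end of Med.

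The gene shn (FBgn0003396) lies on 2R at 11159086 to 11217394 on the plus strand, a span of 58.3 kb with 5 distinct TSSs. It held the tallest peak of all 10 genes, with its summit at 11197089. This peak had a height of 3583 in the joint list, 2402 in replicate 2 and 1199 in replicate 3. It ranked 12 of the IDR list, 12 in the list of replicate 2 and 13 in that of replicate 3, so its place near the top was much the same in each list. The summits of the 2 libraries lay 8 bp apart. The peak sat in an intron of 17.8 kb, 1187 bp upstream of the nearest shn TSS, and all 4 shn transcripts that span the summit have an intron there. The nearest TSS of another gene, CG9084, was 22152 bp away.

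A second summit of the same region lay 982 bp upstream of that TSS and had a height of 1506, with 1115 in replicate 2 and 362 in replicate 3. The region of both summits, 11196851 to 11197448, was 598 bp wide. The third peak of shn, 224 bp upstream of another TSS farther along the same intron, had a height of 994, with 660 in replicate 2 and 327 in replicate 3. It was the taller of the 2 shn peaks within 500 bp of a TSS. The other, 136 bp upstream of an internal TSS in the first intron, was the lowest shn peak at 167. Replicate 2 gave it 191, while replicate 3 had none within 100 bp.

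The 16 summits fell in 2 introns, taken at their longest over the shn transcripts, and exons of other transcripts lie inside both. The first intron, 31.1 kb long at 11159214 to 11190339, held 6 of them, up to a height of 766. The second, 17.8 kb long at 11190397 to 11208244, held 10, among them the 3 tallest. The most upstream summit lay 14581 bp from the first TSS and the most downstream 48123 bp from it. Adjacent summits were 199 to 6418 bp apart, with a median gap of 1340 bp. The exons at the end of the gene, which follow the last of these summits, held no peak.

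After the 3 tallest, the shn peaks fell off gradually in height. Peaks 4 and 5, both in the first intron, had heights of 766 and 663. In replicate 2 they had 562 and 480, and in replicate 3 they had 200.0 and 199.7. The remaining 11 ranged from 167 to 397, most of them above the median of the whole IDR list, 199.5. The tallest peak alone made up 34.9% of the summed height of all 16. Of the 16, 14 had a summit within 100 bp in both libraries, and the ratio of replicate 2 to replicate 3 ran from 1.17 to 3.08. Since 92.2% of all matched IDR peaks had the higher value in replicate 2, that direction is one of the lists as a whole.

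**Figure D1:**
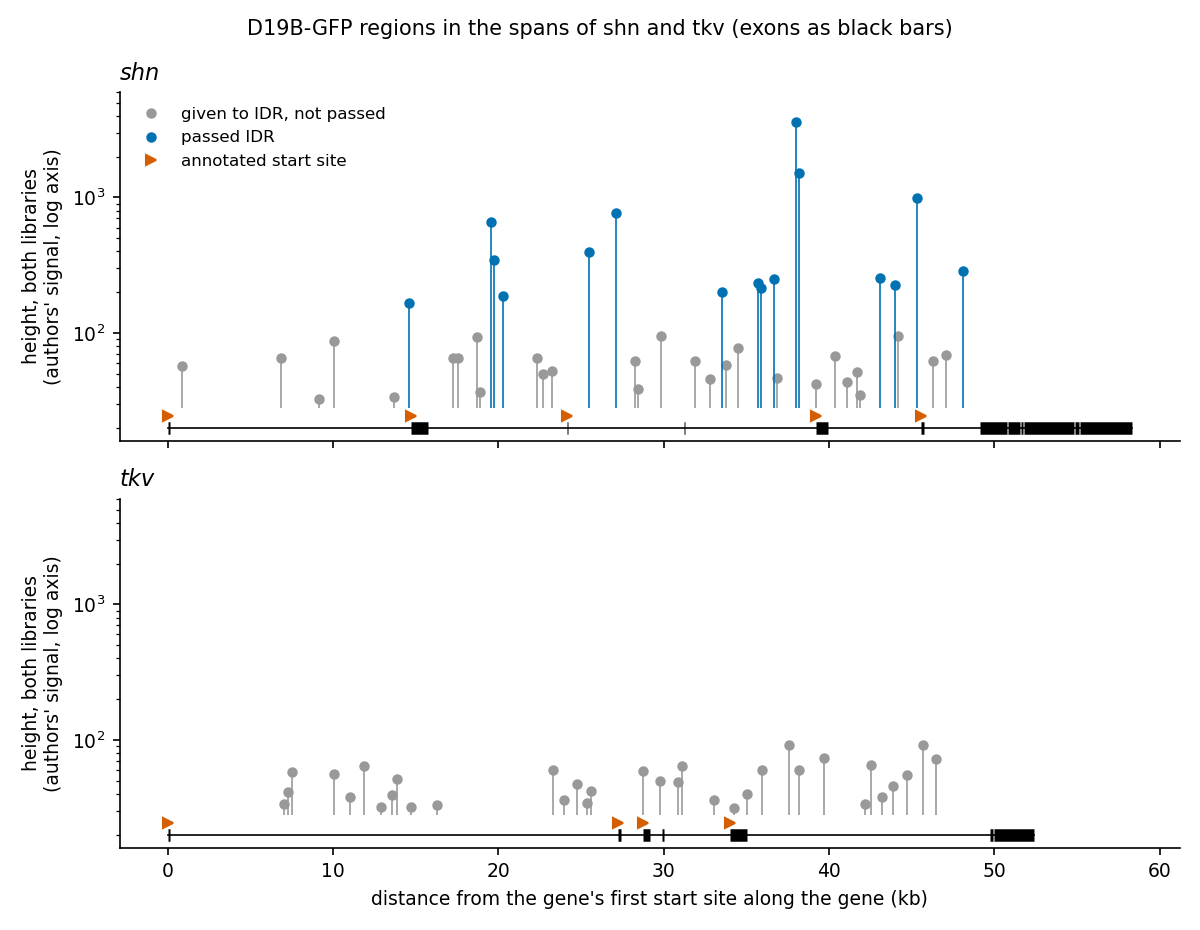
Height of every region given to the IDR step inside shn (top) and tkv (bottom), from the list of both libraries together, against distance from the gene's first start site in kb; the height axis is logarithmic, blue points passed IDR, grey points did not, black bars are exons and triangles start sites. In shn 16 of 44 regions passed, up to 3583, and in tkv 0 of 34 did, with the tallest at 92.1.

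Few genes held as many summits as shn. Among 13968 protein-coding genes, only CHES-1-like held more inside its span, with 18 in 27.0 kb, and bun and kirre followed with 14 each. These counts are of summits and not of separate regions. In shn, peaks 1 and 2 share a region, and the regions of peaks 5 and 7 and of peaks 11 and 13 overlap. The density in shn was 2.74 summits per 10 kb of span, against 0.322 per 10 kb over the chromosome arms. Of the 133 protein-coding genes with a span of 50 to 70 kb, 63 held none, the median was 1 and the next highest was ush with 12. Of all protein-coding genes 11.6% held a summit inside the span, and of the 1367 with a span of 15 kb or more 47.9% did. Within 10 kb on either side of the tallest shn peak lay 8 further summits, and 1.37% of all IDR peaks had at least as many. The 8 include the second summit of the same region, and other shn peaks are among the 1.37%. The median IDR peak had 1.

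**Figure D2:**
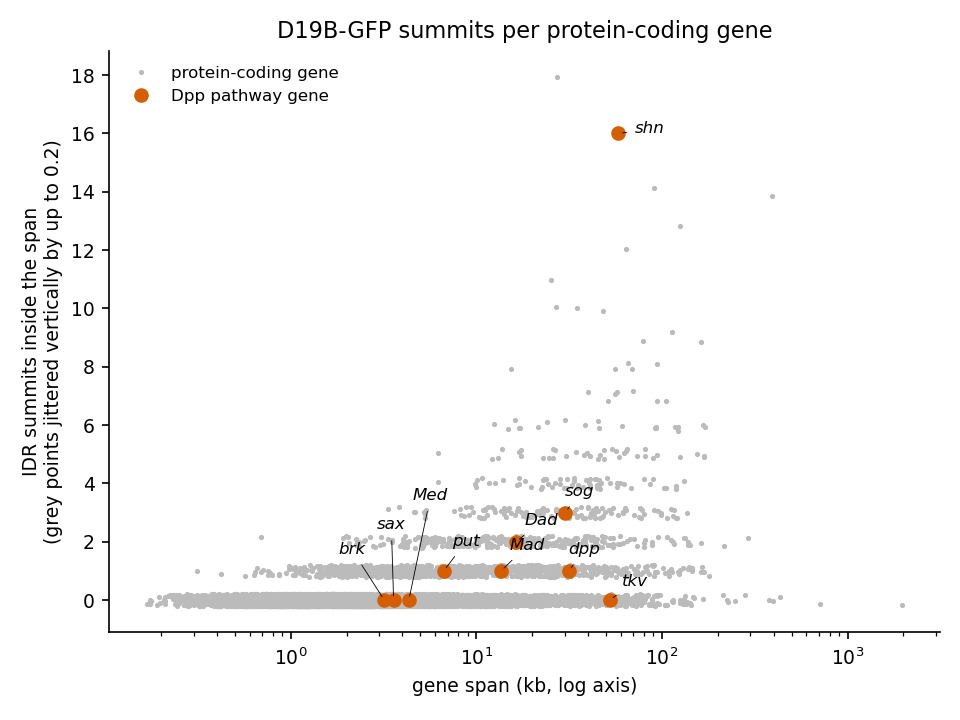
Number of IDR summits inside each protein-coding gene (grey, jittered) against its span in kb on a logarithmic axis, with the 10 Dpp pathway genes in orange. The gene shn stands at 16 summits, while tkv, with a span close to that of shn, has 0 and sog has 3.

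By rank, the tallest shn peak stood among peaks of nearly the same height. The peaks ranked next above it were those nearest to the TSSs of cu, at 3592, and CG4297, at 3676. Next below were those of CG9147, at 3582, and CG4658, at 3453. In replicate 2 these 4 neighbours had heights of 2273 to 2716 and in replicate 3 of 899.7 to 1291. The heights of shn in the libraries, 2402 and 1199, lay inside both ranges, so the order of these 5 peaks was not stable between lists. The peak of CG9147, for example, ranked 14 in replicate 2 and 8 in replicate 3.

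The nuclear repressor gene brk (FBgn0024250, X, 7307939 to 7311132, plus strand) is the gene that Schnurri silences together with Mad and Medea. It had 2 summits upstream of its only TSS, at 749 and 544 bp, and none within 500 bp or in its span of 3.19 kb. The regions of these 2 summits overlap. The farther summit was the taller, with a height of 510 (rank 546) in the joint list, 318 in replicate 2 and 199.6 in replicate 3. The nearer had a height of 217, with 285 in replicate 2 and 55.3 in replicate 3. Its ratio of 5.15 between the libraries was the highest of the 26 peaks matched in both. Both summits lie inside the spans of CG1677 and of the non-coding gene lncRNA:CR44357, and in no exon. The stretch that holds both summits is shown with a set of searched words in capitals, in release 6 coordinates on the plus strand, as are the later ones. The words are the Brinker cores GGCGCC, then GGCGTC, then GGCGCT; the words GCCGGC, like a Mad site, and also GCCGCC; the Smad palindrome GTCTAGAC; the word TATCGATA and its shorter form CGATA; the TATA word TATAAA; the GAGA word GAGAG; the early-embryo word CAGGTAG; and the word ACAGGGTA, each searched on either strand. The short Smad box GTCT and the silencer element were also searched and are not marked.
brk upstream, chrX:7307142-7307441: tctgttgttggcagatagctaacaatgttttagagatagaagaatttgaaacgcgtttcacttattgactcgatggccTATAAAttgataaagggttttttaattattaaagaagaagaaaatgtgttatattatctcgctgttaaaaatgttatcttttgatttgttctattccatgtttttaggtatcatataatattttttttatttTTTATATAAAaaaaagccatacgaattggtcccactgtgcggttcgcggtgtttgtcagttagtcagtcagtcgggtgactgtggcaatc

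In that stretch the capitals mark TATAAA, once near the farther summit and in 2 overlapping copies on opposite strands near the nearer one, and its GC content was 32.0%.

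The ligand gene dpp (FBgn0000490, 2L, 2428372 to 2459823, plus strand) had 1 peak in its span of 31.5 kb. The summit at 2439072 lay 10700 bp downstream of the first TSS, in the 26.0 kb first intron of the only transcript that spans it. Its height was 268 (rank 1471), with 146 in replicate 2 and 116 in replicate 3, a ratio of 1.26. No other region in dpp or within 5 kb passed IDR, and the tallest that did not had a height of 83.0, 1742 bp upstream of the gene. The 300 bases around the dpp summit are shown because they hold the only peak at the ligand gene, and the capitals mark CGATA.
dpp intron, chr2L:2438922-2439221: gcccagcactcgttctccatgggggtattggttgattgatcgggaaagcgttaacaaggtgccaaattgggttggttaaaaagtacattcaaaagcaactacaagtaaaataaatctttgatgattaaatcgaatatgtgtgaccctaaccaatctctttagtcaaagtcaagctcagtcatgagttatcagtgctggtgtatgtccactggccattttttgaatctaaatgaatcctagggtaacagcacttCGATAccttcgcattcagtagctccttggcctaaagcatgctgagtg

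The type I receptor gene tkv (FBgn0003716, 2L, 5219000 to 5271384, minus strand) had no IDR peak. Its span of 52.4 kb is close to that of shn, and 34 regions inside it entered the IDR step, against 44 inside shn. Their heights ended at 92.1 (rank 5743), with a median of 48.4. The median of the shn regions was 68.2 and that of all 30000 regions 47.2. The tallest tkv region of replicate 2 (height 87.6, rank 3789) and that of replicate 3 (48.9, rank 3533) lay 8035 bp apart. The libraries thus differed in which tkv region was tallest. The joint region at the replicate 3 place had a summit within 100 bp in both libraries, at rank 10854 in replicate 2. The joint region at the replicate 2 place had none within 100 bp in replicate 3. When the 4309 tallest regions of a single library were used in place of the IDR list, tkv had a summit in each library. The nearest IDR summit outside the 5 kb limit lay 9076 bp from tkv and 536 bp from the TSS of Cyp28d1, with a height of 190 (189.6).

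The other type I receptor gene, sax (FBgn0003317), is short, with a span of 3.58 kb, and had no peak in it. The 1 peak within 5 kb lay 2300 bp beyond the end of sax and 137 bp from the TSS of the next gene, puml. It had a height of 179 (rank 2511) in the joint list and 127 in replicate 2. In replicate 3, 0 of the 30000 regions lay in sax or within 5 kb of it. Of the 2 library lists, only that of replicate 2 therefore held a region here. A list without a region does not show that signal was absent.

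The type II receptor gene put (FBgn0003169, 3R, 14619030 to 14625703, minus strand) had 2 peaks. The taller lay 425 bp upstream of the put TSS, inside the histone gene His4r and 340 bp from the His4r TSS, so it was close to both starts. Its height was 319 (rank 1130), with 218 in replicate 2 and 87.4 in replicate 3. The second lay 849 bp downstream of the put TSS, in the first intron of all 3 put transcripts. It had a height of 216 (rank 1930), with 87.2 in replicate 2 and 124 in replicate 3. The tallest put region was thus a different peak in each library, the upstream one in replicate 2 and the intronic one in replicate 3. The intronic peak is shown because it lies in put alone, with CGATA, the word GGCGCT and the word TATAAA marked on either strand.
put intron, chr3R:14624704-14625003: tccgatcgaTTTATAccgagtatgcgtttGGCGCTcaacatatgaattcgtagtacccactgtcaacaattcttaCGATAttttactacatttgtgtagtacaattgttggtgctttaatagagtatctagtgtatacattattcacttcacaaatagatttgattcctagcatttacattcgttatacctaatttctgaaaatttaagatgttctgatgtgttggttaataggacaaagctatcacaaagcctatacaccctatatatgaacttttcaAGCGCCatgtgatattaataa

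**Figure D3:**
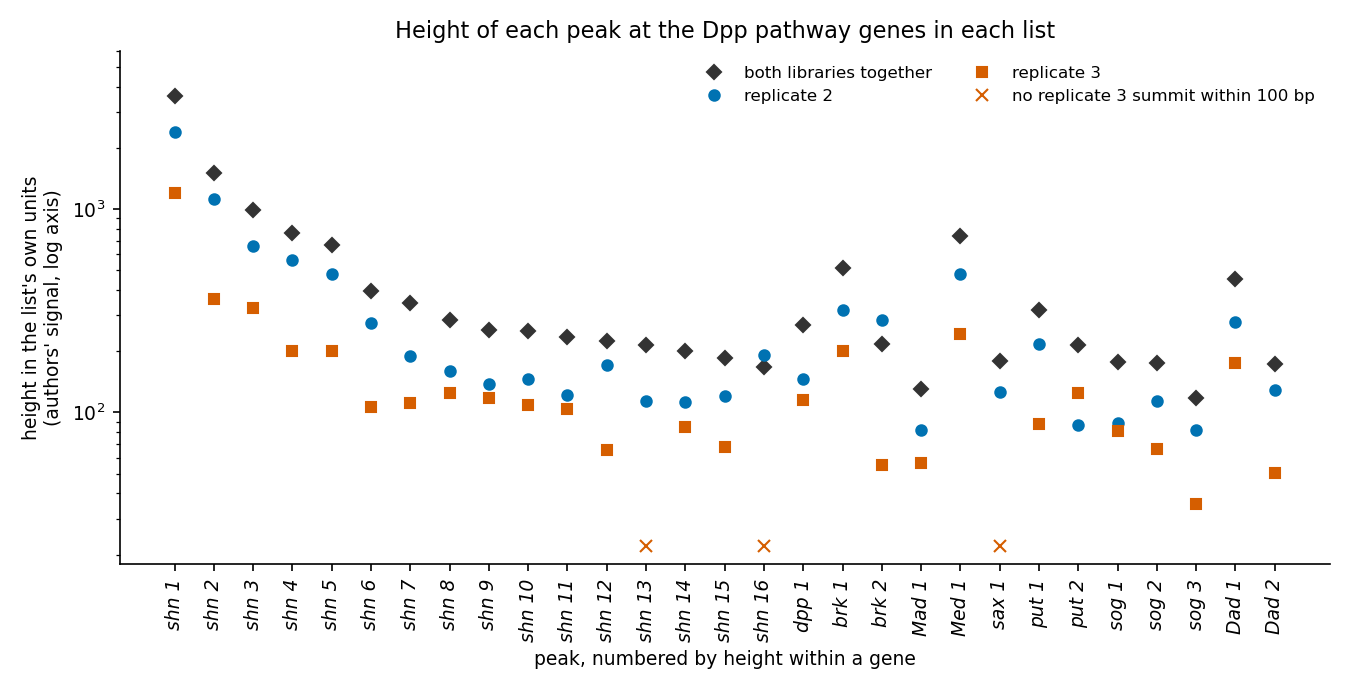
Height of each of the 29 peaks in the list of both libraries (diamonds), in replicate 2 (circles) and in replicate 3 (squares) on a logarithmic axis; crosses mark the 3 peaks with no replicate 3 summit within 100 bp. Replicate 2 is above replicate 3 at 25 of the 26 matched peaks, as it is at 92.2% of all matched IDR peaks, and at put peak 2 it is below (87.2 and 124).

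The Smad genes differed in where their peaks lay. Mad (FBgn0011648, 2L, 3146056 to 3159643, minus strand) encodes the Smad that the receptors phosphorylate and had 1 peak in its span. It lay in the 10.2 kb first intron of the longer transcript, 664 bp upstream of the TSS of the shorter one. The height was 130 (130.5, rank 3782), with 82.0 in replicate 2 and 56.7 in replicate 3, and its percentile in the IDR list was 12.2. Its 300 bases are shown because the words GGCGCC and GGCGTC flank the summit, which is low in GC. Both words lay outside the window of 50 bp on either side of the summit that was searched for all peaks. How often stretches of this length hold them was not counted.
Mad intron, chr2L:3153267-3153566: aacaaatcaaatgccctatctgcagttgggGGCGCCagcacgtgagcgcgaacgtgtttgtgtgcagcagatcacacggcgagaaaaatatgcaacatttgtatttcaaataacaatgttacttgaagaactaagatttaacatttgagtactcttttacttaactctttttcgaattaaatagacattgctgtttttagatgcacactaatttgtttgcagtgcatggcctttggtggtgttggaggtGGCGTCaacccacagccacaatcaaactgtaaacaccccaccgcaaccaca

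The summit window of Mad itself had a GC content of 24.8%, against 42.0% for the whole stretch.

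Medea, the co-Smad, is encoded by Med (FBgn0288966, 3R, 31611046 to 31615375, plus strand), which had no peak in its span or near its TSS. The peak assigned to it lay 809 bp beyond its end and 24 bp from the TSS of Mnat9. With a height of 735 (rank 299), 481 in replicate 2 and 243 in replicate 3, it was the tallest of the 10 genes outside shn, and the library summits lay 1 bp apart. By distance it was a peak at the Mnat9 start, and 5138 bp separated it from the Med TSS.

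The inhibitory Smad gene Dad (FBgn0020493, 3R, 17054007 to 17070408, plus strand) had 2 intronic peaks in a span of 16.4 kb and none at a TSS. The taller, 10248 bp from the nearest Dad TSS in an intron of 3509 bp, had a height of 455 (rank 658), with 278 in replicate 2 and 174 in replicate 3. The lower, in an intron of 6011 bp and 5332 bp from a Dad TSS, had a height of 173, with 129 in replicate 2 and 50.4 in replicate 3. Both introns are shared by all 4 Dad transcripts. The taller region is printed whole as the tallest intronic peak of the 9 genes other than shn, and its capitals mark GAGAG and CGATA.
Dad intron, chr3R:17065007-17065298: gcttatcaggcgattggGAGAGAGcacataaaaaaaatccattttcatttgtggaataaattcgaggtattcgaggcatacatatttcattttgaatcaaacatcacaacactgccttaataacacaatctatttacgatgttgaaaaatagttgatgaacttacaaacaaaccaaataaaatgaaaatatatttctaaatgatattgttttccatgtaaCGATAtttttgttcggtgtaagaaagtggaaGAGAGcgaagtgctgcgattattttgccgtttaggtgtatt

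The antagonist gene sog (FBgn0003463, X, 15603283 to 15633434, minus strand) had 3 intronic peaks in a span of 30.2 kb, all below the median height of the list. Their heights were 177, 175 and 118. In replicate 2 they had 88.3, 113 and 81.8, and in replicate 3 they had 81.2, 66.3 and 35.3, so the order of the first 2 turned between the libraries. The first 2 shared an intron of 10.5 kb, 7049 and 3483 bp downstream of the nearer sog TSS, and both regions were narrow, at 119 and 166 bp, against a median width of 430 bp over the IDR list. The third lay 2258 bp upstream of that TSS, in a 6576 bp intron of the only transcript that spans it. The 3 are shown together to compare them.
sog peak 1, chrX:15619425-15619543: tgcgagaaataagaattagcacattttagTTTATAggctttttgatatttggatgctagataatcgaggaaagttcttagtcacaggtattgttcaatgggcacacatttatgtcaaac
sog peak 2, chrX:15622963-15623128: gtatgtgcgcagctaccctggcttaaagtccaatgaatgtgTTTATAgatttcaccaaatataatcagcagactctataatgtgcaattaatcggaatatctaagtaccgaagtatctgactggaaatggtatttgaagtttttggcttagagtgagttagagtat
sog peak 3, chrX:15628648-15628947: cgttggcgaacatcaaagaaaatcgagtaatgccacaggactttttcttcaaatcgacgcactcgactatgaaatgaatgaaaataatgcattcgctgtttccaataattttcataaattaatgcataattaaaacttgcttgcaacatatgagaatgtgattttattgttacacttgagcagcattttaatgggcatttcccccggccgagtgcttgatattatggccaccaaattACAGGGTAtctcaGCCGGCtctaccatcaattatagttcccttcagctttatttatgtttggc

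The words ACAGGGTA and GCCGGC in the third sog stretch lay outside the summit window, and ACAGGGTA was picked from earlier results of these data. TATAAA lay inside the summit window in the first stretch, and in the second it was not wholly inside.

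The sog gene also held the peaks next to the IDR threshold. The lowest peak at any of the 10 genes, the third of sog at 117.9, was just above the lowest height in the list, 117. Just outside it, 1 region 3404 bp beyond the end of sog had 108.6 and 1 in Dad had 108.1. The Dad region overlaps that of the lower Dad peak, which passed IDR. At the TSS limit of 500 bp, put was the last gene inside at 425 bp and brk the first outside at 544 bp. At the limit of 5 kb, the sax peak at 2300 bp was the farthest inside, and a peak 5141 bp from shn, 336 bp from the TSS of CG7737 and 463 high, was the nearest outside.

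The 2 libraries were compared over the 29 peaks. A summit within 100 bp was present in replicate 2 for all 29, in replicate 3 for 26, and in both for 26 (89.7%), against 86.7% of all IDR peaks. The 3 without a match were the thirteenth and sixteenth peaks of shn and the peak near sax. The median ratio of replicate 2 to replicate 3 was 1.74 for the 26 peaks, 1.89 for the 14 in shn and 1.65 for the other 12. Over all IDR peaks the median was 1.91 (quartiles 1.47 and 2.50). As a description, Spearman's rho of the heights in the libraries was 0.738 over the 26 peaks and 0.691 over all matched IDR peaks. These peaks share their libraries, and those of 1 gene share a locus.

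Sequence at the summits was searched for the words listed for brk, for the Smad box and for the silencer element. In windows from 50 bp before to 50 bp after the summit, none of the 29 peaks held CGATA, against 13.3% of all 4309 IDR windows, and none held TATCGATA (0.998% of all), the word CAGGTAG (0.557%), the word ACAGGGTA (2.97%) or the palindrome GTCTAGAC (0.0464%). The silencer element at which Mad, Medea and Schnurri meet, searched by its consensus, was in 0 of the 29 windows and in 0 of the 4309. TATAAA was in 6 windows (22.5% of all IDR windows), with both brk summits among them, and GAGAG was in 3 windows (8.73%), all in shn. Of the words like Brinker and Mad sites, GGCGCC was in the window of the put peak at His4r (1.07%), GGCGCT in the second of shn (1.55%) and GCCGCC in the thirteenth of shn (1.72%). The others of these words, GGCGTC (1.23%) and GCCGGC (0.743%), were in 0 of the 29. The short Smad box GTCT was in 7 windows (30.5%). The words marked in the printed stretches of dpp, put, Mad and Dad lie outside these windows, and no share was counted for stretches of that length. A word that is absent from a window says only that these letters are not there.

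Promoters were searched from 250 bp before to 50 bp after each TSS. The 10 genes had 24 such promoters, and 12 of them held CGATA, against 45.6% of 19276 promoters of protein-coding genes. TATAAA was in 5 of the 24 (42.2% of all promoters), GAGAG in 12 (33.1%) and GTCT in 21 (70.9%). TATCGATA was in 4 (7.98%), GCCGGC in 4 (6.44%), GCCGCC in 3 (12.4%), and GGCGTC and GGCGCT in 2 each (6.89% and 10.2%). GGCGCC was in 1 (887 of all 19276) and CAGGTAG in 1 (1.69%), while ACAGGGTA (0.467%) and GTCTAGAC (0.140%) were in 0. The silencer element was in 0 of the 24 and in 13 of all 19276. These counts follow letters and not sites.

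Base composition at the summits was low in GC. The median GC content of the same windows was 32.7% for the shn peaks, 31.7% for the other 13 and 32.7% for all IDR peaks. Windows 500 bp to either side had medians of 42.6%, 47.5% and 43.6%. Of the 29 peaks, 21 had a summit window lower in GC than both flanking windows, against 61.3% of all IDR peaks. In shn this held for 10 of 16, and the tallest peak was not among them, with 27.7% at the summit, 25.7% on one side and 37.6% on the other. Of the 29 summits, 26 lay in no exon of any gene and inside the span of a protein-coding gene, against 51.3% of all IDR summits. The 29 were assigned because they lay in or near the chosen genes, and 16 of them lay in introns of shn. The rule itself therefore favours a high share, and the difference from all IDR summits was not tested.

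**Figure D4:**
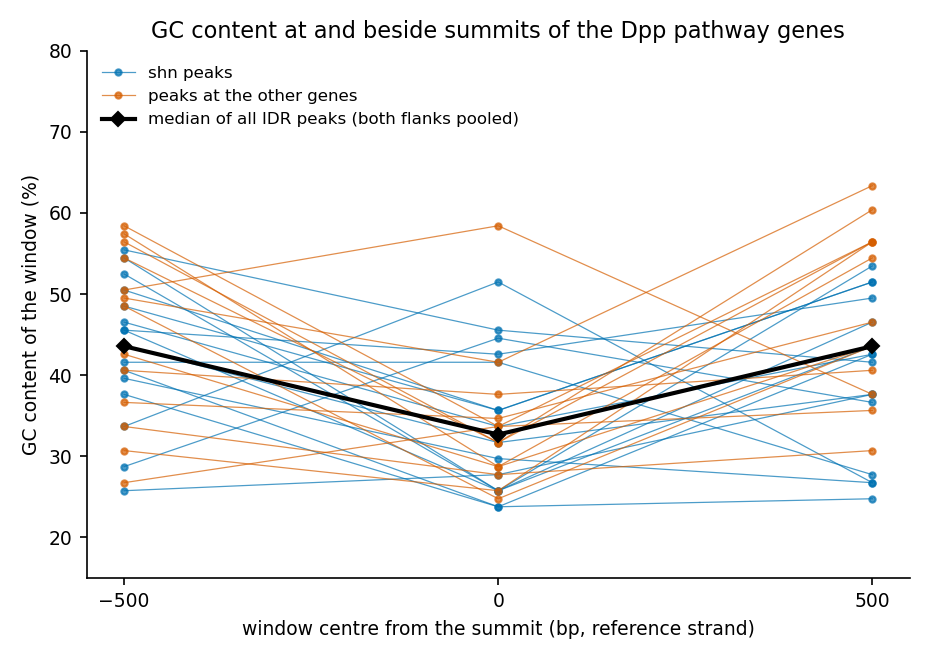
GC content in % of the window of 50 bp on either side of each summit and of the windows centred 500 bp to either side, for the 16 shn peaks (blue) and the 13 at the other genes (orange), with the medians of all IDR peaks in black (both flanks pooled). Most lines dip at the summit, and the peak with the highest value there, 58.4%, is put peak 1 inside His4r.

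A wider list of 61 Dpp and BMP pathway genes, the 10 included, was examined in the same way. A summit lay in the gene or within 5 kb at 38 of the 61 and within 500 bp of a TSS at 13. For the 51 genes other than the 10, the counts were 29 (56.9%) and 11 (21.6%), beside the 43.6% and 15.3% of protein-coding genes given above. These shares were not matched for span, and the list holds long genes such as kek5 (118.7 kb). The list was also chosen with earlier results of these data known, and the difference was not tested. The tallest peak per gene had a median of 317 over the 38 genes.

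Among the ligand genes, 2 of 7 had a peak: dpp and gbb, which encodes a second BMP ligand, with 1210 at 1153 bp upstream of its TSS. The gbb peak had 806 in replicate 2 and 417 in replicate 3, and it lay 79 bp from the TSS of an antisense RNA gene. Receptor genes had a peak at 4 of 5, led by an intronic peak of wit, the type II receptor gene used at the neuromuscular junction, with 1459 in the joint list, 968 in replicate 2 and 490 (490.3) in replicate 3. Smad genes had one at 3 of 4, all in the list of 10. The gene for the activin-type Smad, Smox, had none.

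Of 5 genes for nuclear cofactors and repressors, 4 had a peak. Besides shn and brk these were sbb, with 9 summits in its 79.1 kb span and a tallest peak of 627, and gro, the Groucho corepressor gene, with 538 close to a TSS. These 5 genes held 26 of the 70 summits inside spans of the wider list, 16 of them in shn. Extracellular regulators had a peak at 11 of 15. The tallest were an intronic peak of dally, a glypican gene, with 831 and a peak of 682 at the start of the collagen gene vkg, which the 5 kb rule also gave to its neighbour Col4a1. Intracellular regulators had one at 5 of 7, with sgg, the GSK-3 kinase gene, at 607 and Fkbp12 at 283, the latter 2737 bp beyond the gene.

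Target genes of the pathway had a peak at 9 of 18 and within 500 bp of a TSS at 1, ush. The tallest of the IDR list, at 15866, lay in an intron of ush, which encodes a cofactor of GATA factors, and 1393 bp from the TSS of cbt. The next among the targets was 1598 at tup, an amnioserosa LIM-homeodomain gene, 1594 bp beyond its end and 234 bp from the TSS of CG10602. The spalt genes salm and salr, zen, pnr, rho, Ance, C15, Doc2 and Doc3 had no IDR summit in the gene or within 5 kb.

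**Figure D5:**
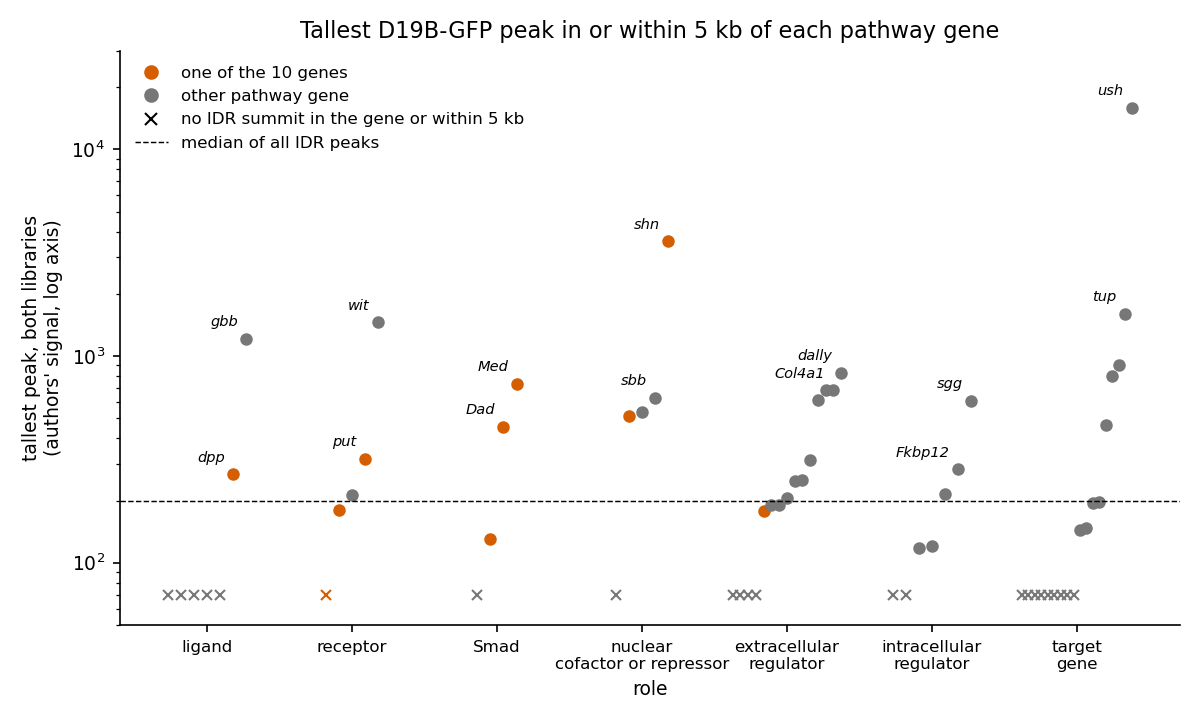
Tallest peak in or within 5 kb of each of the 61 pathway genes, by role, on a logarithmic height axis; orange marks the 10 genes, grey the others, crosses genes without an IDR summit, and the dashed line the median of all IDR peaks (199.5). The highest point is ush at 15866, and shn at 3583 is the highest of the 10.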

How the data were processed

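D19B-GFP binding was measured by ChIP-seq in 2 libraries of 1 group of 0 to 24 h embryos, from chromatin sonicated to 200 to 800 bp per the labels. Per the file records deposited with the samples, the authors made a list of peaks with background per library and a list from both libraries, from the alignments and 1 further file that is not analysed here, and passed these lists of 30000 regions to IDR. The labels name a possible control. Which aligner, peak caller and IDR threshold were used is not stated there. Column 7 of each list is the authors' signal value, used to describe and rank regions within a list. The deposited −log10 q was read and served no filter. Only the dm6 lists were used, and the dm3 lists were not used here.

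Summits were placed in 1-based dm6 coordinates. Sequence came from the release 6 genome of RefSeq, and genes and TSSs came from Ensembl release 115 without transposable elements. All peaks lay within the arm lengths of that genome. A peak of a library matched within 100 bp. All 10 genes and all 61 genes of the wider list were matched by symbol. Each gene in the text is one of the 10, one of the 2 tallest per role, the nearest other TSS, or one of the 2 neighbours in rank on either side; CHES-1-like, bun and kirre, the peaks just outside a limit and some genes without a peak were named after their values were seen. The genes and lists were chosen with earlier results of these data known. No test was made, because there was 1 group of 2 libraries. Assignment and matching were checked on simulated data. The tools were matplotlib 3.10.9, pandas 2.3.3, scipy 1.17.1, numpy 2.4.6 and Python 3.11.15.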

Additional observations from a re-analysis of the deposited data

How the results depend on the processing

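Alternatives were a TSS distance of 200 or 1000 bp, a gene distance of 0, 2 or 10 kb, and other match distances. Others were the taller part of the IDR list, all regions with no threshold, each library alone, and summits of an identical region merged. Overlapping regions that differ in an end were not merged. The number of the 10 genes with a summit near a TSS was 2, and became 1 at 200 bp, 4 at 1000 bp and 9 with no threshold. Of the 10 genes, the 9 with a summit in the gene or within 5 kb became 6 inside the span alone and 6 with the taller part of the IDR list. The 29 peaks became 163 with no threshold, 27 without replicate 2 and 31 without replicate 3. In the wider list, the 13 genes with a summit near a TSS became 7 at 200 bp and 38 with no threshold, and the 38 with a summit in the gene or within 5 kb became 21 inside the span alone. For the span alone, the share was 11.6% of protein-coding genes and 47.9% of those with a span of 15 kb or more. Of the 10 genes, shn, dpp, tkv, sog and Dad are that long. Shares over all genes at the other settings were not worked out, so these counts have no background beside them. The height of the tallest shn peak was 1199 without replicate 2 and 2402 without replicate 3, and its rank was 13 and 12. The gain with no threshold follows from the number of regions, and the cause of the other changes was not tested. Of 47 values under alternatives, 37 stayed close to the reported one, which means within 1.5 times for a count and within 1 SD for a height, rank or ratio. For a height or rank the SD was that of the 2 library values themselves, and for a ratio it was that over the matched peaks. Joint and library heights are not on 1 scale, so for the height this is no measure of stability. No paired analysis was possible because there was only 1 group. Read depth is unknown from these lists, which limits any statement that a gene has no peak.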
